A study of Mus musculus with 9 samples.

Results

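The miRNAs described here come from 10 hairpins of the imprinted Dlk1-Dio3 region on mouse chromosome 12, grouped around miR-127. They were measured by small RNA sequencing of extracellular vesicles (EVs) isolated from bronchoalveolar lavage fluid (BALF), the fluid washed out of the airways. All entries of the hairpins mir-127, mir-434, mir-136, mir-379, mir-411, mir-300, mir-382, mir-541, mir-409 and mir-410 were taken, on both arms and with their isomiRs, whatever their level. This gave 23 of the 1308 entries in the table, from 9 of the 10 hairpins, because miR-410 had no entry. An entry is a mature miRNA at its annotated start (13 entries) or an isomiR whose 5′ end is shifted from it (10 entries, written with the shift in bases, such as _+_1). The group was chosen by its hairpins' place around miR-127 and by the level of miR-127-3p, whose difference between 1 ppm ozone (O3) and filtered air (FA) was already known, so values of that comparison are given as a description and without a test.

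All mice were female C57BL/6J, 8 to 10 weeks old, and spent 3 hours in whole-body chambers with FA, 1 ppm O3 or 2 ppm O3 before lavage on the next day. Each exposure had 3 pools, each of 4 mice in the FA group and of 3 mice in both O3 groups, so the number of mice in a pool and the presence of O3 cannot be told apart. A pool is the replicate, and p-values measure the spread between pools, not between chamber runs. The paper's exposure records list no separate runs for the pools of an O3 group, so concentration and run cannot be told apart. Values are miRNA reads scaled to a total of 1000000 mapped miRNA reads per pool (RPMMM).

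Genes of the Dlk1-Dio3 region are expressed from 1 parental chromosome. The protein-coding genes, among them Dlk1, Rtl1 and Dio3, are expressed from the paternal copy, and the non-coding RNAs, among them Meg3, Rian, Mirg and the many miRNAs, from the maternal copy. The miRNAs are abundant in the embryo, the placenta and the brain and are low in most adult tissues. miR-127, miR-434 and miR-136 are encoded on the strand opposite Rtl1, the gene of a retrotransposon-derived protein needed in the placenta. Their sequences therefore pair perfectly with the Rtl1 transcript, and miR-127 and miR-136 are known to direct its cleavage. The others belong to the large cluster that begins with miR-379 and ends with miR-410, further along the same strand.

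The mature sequences below are those on which the results turn: the 3p arms from the Rtl1 side, the related miR-379 and miR-411, and miR-541-5p, the most abundant entry of the miR-379 side. They are RefSeq sequences, written 5′ to 3′ with the seed (bases 2 to 8, which pair with a target) in capitals.
miR-127-3p: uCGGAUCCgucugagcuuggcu
miR-434-3p: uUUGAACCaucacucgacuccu
miR-136-3p: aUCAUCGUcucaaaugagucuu
miR-379-5p: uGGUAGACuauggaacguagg
miR-411-5p: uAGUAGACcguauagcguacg
miR-379-3p: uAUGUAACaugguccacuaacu
miR-411-3p: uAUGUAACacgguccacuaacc
miR-541-5p: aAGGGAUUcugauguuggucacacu

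The seed of miR-127-3p occurred in none of the other mature miRNAs among the 1679 in the RefSeq table. The 3p arms of miR-379 and miR-411 had the same seed and were identical at 20 of 22 bases. Their 5p arms had different seeds. All 10 hairpins and their 20 mature sequences were found in RefSeq and were placed on mm9, the build of the deposited values, by an exact match.

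On mm9, miR-127-3p lay at chr12:110831098-110831119 on the plus strand. miR-434-3p lay at chr12:110832775-110832796 and miR-136-3p at chr12:110833576-110833597. These 3 hairpins spanned the first 2.48 kb and lay opposite coding sequence of Rtl1, which runs on the minus strand from 110827404 to 110838540. The hairpins of miR-379 (116.21 kb from miR-127), miR-411 (117.33 kb), miR-300 (131.47 kb) and miR-382 (140.93 kb) lay between annotated genes. Those of miR-541 (149.56 kb) and miR-409 (150.31 kb) lay in an intron of Mirg, and that of miR-410 (150.87 kb) in a Mirg exon. The group thus covered 150.9 kb of 1 strand.

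Depth set what could be seen. The steps between low values gave 535540 to 773280 miRNA reads per FA pool, 555090 to 860970 per 1 ppm pool and 281540 to 300910 per 2 ppm pool. The lowest value listed above 0 stood for 10.0 to 10.5 reads in every pool. That is 13.58 to 18.87 RPMMM in FA, 11.81 to 18.92 RPMMM at 1 ppm O3 and 34.34 to 37.3 RPMMM at 2 ppm O3, and a 0 says only that an entry was not listed above that minimum. Of all entries, 57.1% to 60.9% were above 0 in FA pools, 54.8% to 65.1% at 1 ppm O3 and 35.9% to 38.7% at 2 ppm O3. As a check of the material, miRNAs of epithelial cells summed to 67690 to 73310 RPMMM in FA, 54020 to 58980 RPMMM at 1 ppm O3 and 27750 to 32120 RPMMM at 2 ppm O3, and those of leukocytes to 2833 to 3925, 2951 to 3692 and 1817 to 2190 RPMMM. Both lists were thus lower at 2 ppm O3 than in FA without overlap, as was the epithelial list at 1 ppm O3. Of the 461 single entries tested below, 48.2% had all 2 ppm pools below all FA pools, and 18.4% had all 1 ppm pools below them. The median log2 fold change of these entries against FA was -0.83 at 2 ppm O3 and -0.08 at 1 ppm O3. No share was computed for sums, and whether the lists fell more than other entries was not tested. miRNAs of ciliated cells summed to 11050 to 16600 RPMMM in FA, 5984 to 10680 RPMMM at 1 ppm O3 and 11860 to 13780 RPMMM at 2 ppm O3. They were lower than in FA without overlap at 1 ppm O3 but overlapped with FA at 2 ppm O3. The part of these lists in the results below was not tested. The FA pools were less alike than the others in a muscle list (miR-1, miR-133 and miR-206), which summed to 234.7, 1168 and 6029 RPMMM in FA pools 1 to 3, to 145.9 to 217.2 RPMMM at 1 ppm O3 and to at most 178.5 RPMMM at 2 ppm O3.

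miR-127-3p was the most abundant of these miRNAs and the only entry of the 23 that was above 0 in all 9 pools. Its levels in the FA pools were 350.1, 424.2 and 778.7 RPMMM, from 270, 328 and 417 reads. At 1 ppm O3 they were 18.3, 23.42 and 72.01 RPMMM, from 11, 13 and 62 reads. At 2 ppm O3 they were 36.56, 82.92 and 248.6 RPMMM, from 11, 24 and 70 reads. All FA pools lay above all O3 pools, and the ranges of 1 ppm and 2 ppm O3 overlapped. The lowest FA pool was 4.86-fold above the highest 1 ppm pool but only 1.41-fold above the highest 2 ppm pool. Exact 95% Poisson intervals, which cover counting error only, ran from 309.5 to 394.4 RPMMM for that FA pool and from 193.8 to 314.1 RPMMM for that 2 ppm pool, so they overlapped. Several O3 values rested on reads close to the reporting minimum.

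**Figure D1:**
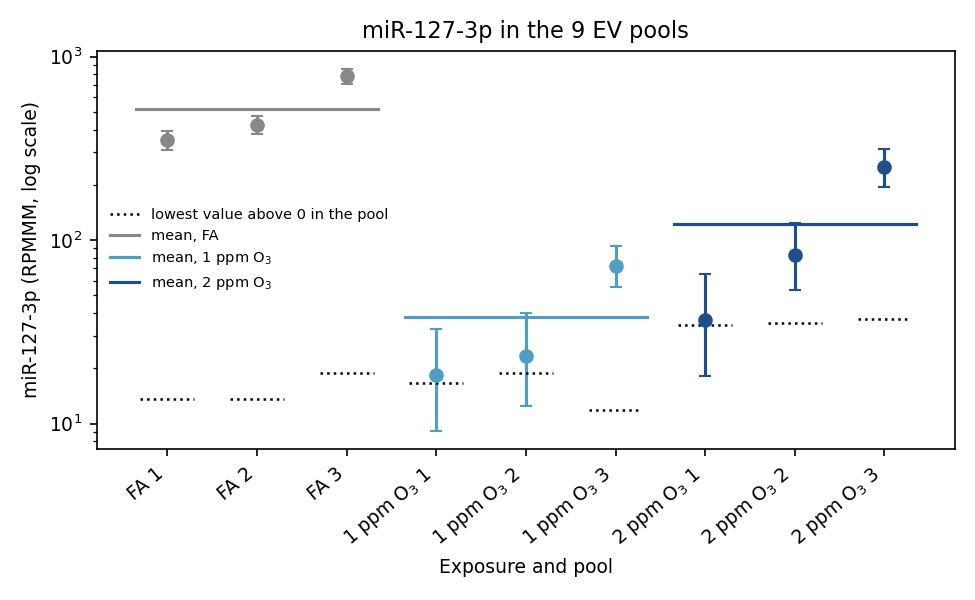
Level of miR-127-3p (RPMMM, log scale) in the 3 pools of each exposure; points are pools, bars the exact 95% Poisson interval of their reads, solid lines group means and dotted lines the lowest value above 0 in each pool. The FA pools sit between 350.1 and 778.7 RPMMM, the 1 ppm pools between 18.3 and 72.01 and the 2 ppm pools between 36.56 and 248.6.

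The mean level was 517.6 ± 229.1 RPMMM in FA, 37.91 ± 29.64 RPMMM at 1 ppm O3 and 122.7 ± 111.5 RPMMM at 2 ppm O3 (SD, n = 3 pools each). The pools of an exposure differed by 2.22-fold in FA, 3.94-fold at 1 ppm O3 and 6.80-fold at 2 ppm O3 between the highest and the lowest. By mean level, miR-127-3p ranked 147th of all entries in FA, 535th at 1 ppm O3 and 287th at 2 ppm O3. Since the RNA is of bulk vesicles, fewer vesicles from a cell type and less of the miRNA in each vesicle cannot be told apart.

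In the comparison of 1 ppm O3 with FA, by which the group was chosen, the log2 fold change of miR-127-3p was -3.91 (SE 0.77) on the log2(RPMMM + 1) scale, and the ratio of the FA mean to the 1 ppm mean was 13.7. Entries averaging more than 50 RPMMM were tested, 461 in all, and were called where the adjusted p was under 0.05 and the difference at least 2-fold. Here 2.82% of them were called lower, and 18.4% had all 1 ppm pools below all FA pools. The median log2 fold change of all tested entries was -0.08.

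At 2 ppm O3, miR-127-3p was lower than in FA (log2 fold change -2.40, SE 0.77, 95% confidence interval -4.13 to -0.67), with an adjusted p of 0.0249 in limma over the 461 entries. The FA pools are those that served to choose the group, so this test is not independent of the choice. The background was high: 29.3% of tested entries were called lower in this comparison and 43.6% in either direction, and the median of all tested entries was -0.83. All 2 ppm pools lay below all FA pools for 48.2% of tested entries, so miR-127-3p was 1 of many. An exact two-sided permutation test of miR-127-3p alone gave p = 0.1, which is the smallest that 3 pools against 3 allow. The call depended on single pools and on scaling. Without FA pool 2 or 3, or without 2 ppm pool 1 or 2, adjusted p in limma was 0.0557, 0.0936, 0.0851 and 0.0583, and scaling by the median of ratios gave a log2 fold change of -1.71 with an adjusted p of 0.0945. That scaling also turned the balance of all calls, from 135 lower and 66 higher to 34 lower and 87 higher.

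Between the O3 concentrations, miR-127-3p was not shown to differ. Its mean was 3.24-fold higher at 2 ppm than at 1 ppm O3, the log2 fold change was 1.51 (SE 0.77, 95% confidence interval -0.22 to 3.24), and adjusted p in limma was 0.135. The interval includes both no difference and a difference of more than 3 on the log2 scale. In this comparison 11.3% of tested entries were called higher and 33.6% in either direction, and the median of all tested entries was -0.69. The exact two-sided permutation p was 0.2.

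miR-127-5p, the opposite arm, was listed at its annotated start in 1 pool alone, FA pool 1, at 14.26 RPMMM. Its most abundant isomiR, miR-127-5p_+_2, was at 56.9 and 41.08 RPMMM in FA pools 2 and 3 and at 0 in the other 7 pools. With its isomiRs, the 5p arm was thus listed in each FA pool and in no O3 pool, but some of these values lie below what a 2 ppm pool lists. Shifted forms of miR-127-3p were seen in 2 pools. In 1 ppm pool 1, 53.24 of the 71.54 RPMMM on the arm carried a shift, and in FA pool 3 an isomiR stood at 20.54 RPMMM. The shifted share of the arm was 0.86% ± 1.48 in FA, 24.8% ± 43.0 at 1 ppm O3 and 0% at 2 ppm O3 (SD, n = 3), and no pair of exposures was shown to differ (exact permutation test, two-sided, p = 1 for each of the 3 comparisons). The 1 ppm value rests on pool 1 alone, and without it the share at 1 ppm O3 was 0.86 percentage points below that in FA.

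Beside miR-127, the most abundant miRNAs of the Rtl1 side were from miR-434. miR-434-3p was at 54.45, 106 and 110.2 RPMMM in the FA pools, from 42, 82 and 59 reads. It was at 53.25, 30.62 and 0 RPMMM at 1 ppm O3 and at 36.56, 0 and 0 RPMMM at 2 ppm O3. Every FA pool lay above every O3 pool, by a narrow margin, since 54.45 RPMMM in FA stood against 53.25 RPMMM at 1 ppm O3. Among tested entries, 18.4% had all 1 ppm pools below all FA pools, and 48.2% had all 2 ppm pools below them. miR-434-5p was at 25.28 RPMMM in FA pool 1 and at 0 elsewhere, and its isomiR at 20.54 RPMMM in FA pool 3.

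miR-136-3p was at 63.53, 0 and 31.74 RPMMM in FA and at 0 in all 6 O3 pools. Its 5p arm, miR-136-5p, had no entry. The hairpins opposite Rtl1, without miR-127-3p, summed to 180.9, 162.9 and 224.1 RPMMM in FA, to 106.5, 30.62 and 0 RPMMM at 1 ppm O3 and to 36.56, 0 and 0 RPMMM at 2 ppm O3. The FA pools were close to each other in this sum (189.3 ± 31.42 RPMMM, SD, n = 3) and did not overlap with either O3 group. Part of the sum in FA pools 1 and 3 came from values below 34.34 RPMMM, which 2 ppm pools do not list. For comparison, 18.4% of single tested entries had all 1 ppm pools below all FA pools, and 48.2% had all 2 ppm pools below them. No share was computed for sums or for both O3 groups at once.

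**Figure D2:**
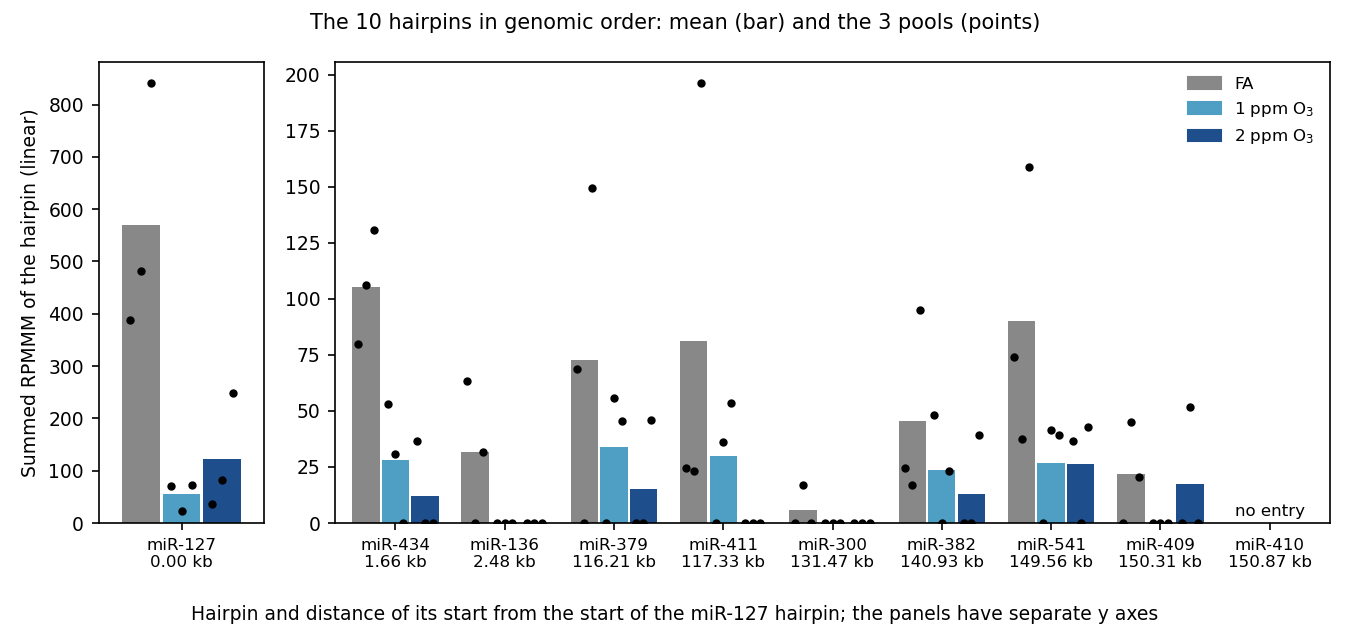
Summed level of all entries of each hairpin (RPMMM, linear) in genomic order, with the distance from miR-127 in kb; bars are means of 3 pools and points the pools, and the panels have separate axes. miR-127 averaged 569.7 RPMMM in FA against 55.66 at 1 ppm and 122.7 at 2 ppm O3, and no other hairpin averaged above 105.5 RPMMM.

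On the miR-379 side, no entry was as abundant as miR-127-3p, and levels were uneven. Its 13 entries together averaged 317.2 RPMMM in FA, 114.3 RPMMM at 1 ppm O3 and 72.08 RPMMM at 2 ppm O3. This was more than the 9 entries of the Rtl1 side without miR-127-3p (189.3, 45.7 and 12.19 RPMMM). miR-379-5p was at 35.01, 0 and 149.4 RPMMM in FA, at 27.88 RPMMM in 1 ppm pool 3 and at 0 in the other O3 pools. Its opposite arm, miR-379-3p, went from pool to pool without order: 33.71 RPMMM in FA pool 1, 55.85 RPMMM in 1 ppm pool 2 and 46.17 RPMMM in 2 ppm pool 3, with 0 in the other 6. miR-411-5p was at 0, 23.28 and 91.5 RPMMM in FA, at 36.03 RPMMM in 1 ppm pool 2 and at 0 in the rest. miR-411-3p was listed in FA pool 3 alone, at 104.6 RPMMM, in a pool where miR-379-3p, which has its seed, was at 0.

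miR-541-5p was the most abundant of this side. It was at 73.9, 37.5 and 134.4 RPMMM in FA, at 0, 41.43 and 39.49 RPMMM at 1 ppm O3 and at 36.56, 0 and 42.62 RPMMM at 2 ppm O3. Its FA range overlapped with both O3 groups. miR-382-5p was at 0, 16.81 and 52.28 RPMMM in FA and at 39.07 RPMMM in 2 ppm pool 3. The 3p arm of miR-382 appeared only as an isomiR, miR-382-3p_-_2, at 24.63, 0 and 42.95 RPMMM in FA, 48.26, 0 and 23.23 RPMMM at 1 ppm O3 and 0 at 2 ppm O3. miR-409-3p was at 45.26 RPMMM in FA pool 2 and at 51.83 RPMMM in 2 ppm pool 2, and miR-300-3p at 16.81 RPMMM in FA pool 2, with 0 in all other pools. The other arms of miR-541, miR-409 and miR-300 had no entry. Among the isomiRs of this side, miR-411-5p_-_1 was at 24.63 RPMMM in FA pool 1 and at 53.43 RPMMM in 1 ppm pool 3. miR-409-3p_+_1 (20.54 RPMMM) and miR-541-5p_+_1 (24.27 RPMMM) were listed in FA pool 3 alone, and miR-379-5p_+_1 (17.42 RPMMM) in 1 ppm pool 3 alone. No isomiR of the 23 entries was above 0 at 2 ppm O3.

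The entries of this side summed to 191.9, 139.7 and 619.9 RPMMM in FA, to 48.26, 133.3 and 161.5 RPMMM at 1 ppm O3 and to 36.56, 51.83 and 127.9 RPMMM at 2 ppm O3. FA and 1 ppm O3 overlapped in this sum, and FA pool 3 was far above the rest. That pool was also the one with 6029 RPMMM in the muscle list. The part of the muscle miRNAs in these values was not tested.

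**Figure D3:**
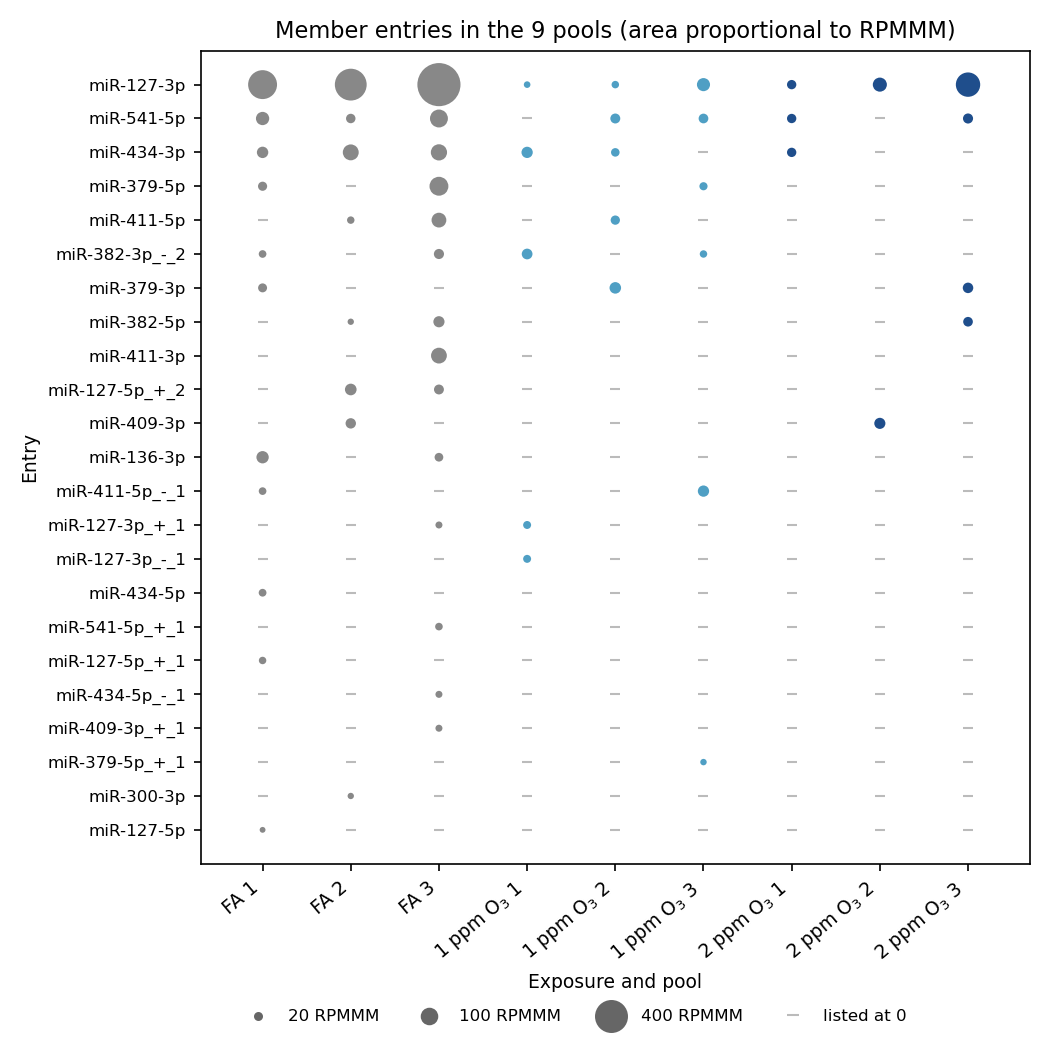
Level of each of the 23 entries in each of the 9 pools, with circle area proportional to RPMMM and a dash where the entry is listed at 0; entries are ordered by mean level. Only miR-127-3p has a circle in every pool, and FA pool 3 has circles for 14 entries against 2 for 2 ppm pool 2.

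Of the 22 entries other than miR-127-3p, none passed the filter of a mean above 50 RPMMM. miR-541-5p (mean 45.11 RPMMM over the 9 pools) and miR-434-3p (43.45 RPMMM) came closest, and miR-127-3p passed with a mean of 226.1 RPMMM. No entry was at 0 in every pool, but 10 of the 23 were above 0 in 1 pool alone. Entries above 0 in at least 1 pool numbered 21 in FA, 11 at 1 ppm O3 and 6 at 2 ppm O3. Among the 22, 30 of 66 values in FA were above 0, against 13 of 66 at 1 ppm O3 and 6 of 66 at 2 ppm O3. Because the 2 ppm pools list nothing below 34.34 RPMMM, values of at least 40 RPMMM were also counted: 14 of 66 in FA, 5 of 66 at 1 ppm O3 and 3 of 66 at 2 ppm O3. Without FA pool 3, 6 of 44 FA values reached 40 RPMMM. Over all 1308 entries, 40.4% to 42.2% reached 40 RPMMM in FA pools, 39.7% to 40.9% at 1 ppm O3 and 34.4% to 37.0% at 2 ppm O3.

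Summed over all 23 entries, the level was 1024 ± 518.4 RPMMM in FA, 198 ± 31.57 RPMMM at 1 ppm O3 and 207 ± 147.3 RPMMM at 2 ppm O3 (SD, n = 3). These miRNAs made up 0.0723% to 0.162% of the miRNA reads of an FA pool and 0.0110% to 0.0377% of those of an O3 pool. miR-127-3p gave 48.0% to 58.4% of the sum in FA, 10.6% to 30.8% at 1 ppm O3 and 33.3% to 66.0% at 2 ppm O3. Without miR-127-3p the sum was 302.6 to 844 RPMMM in FA, 154.8 to 163.9 RPMMM at 1 ppm O3 and 51.83 to 127.9 RPMMM at 2 ppm O3. In this sum the 3 exposures did not overlap, but fewer values could be listed at 2 ppm O3. For single tested entries, all 1 ppm pools lay below all FA pools in 18.4%, and all 2 ppm pools in 48.2%.

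When all 1308 entries were tested without a filter, miR-127-3p was the one entry of the 23 called in limma between 2 ppm O3 and FA (adjusted p = 0.0336), where 179 of the 1308 entries were called lower and the median of all was -1.40. In that comparison 4 of the 23 had an unadjusted p below 0.05, against 393 of the 1308. Besides miR-127-3p these were miR-434-3p (log2 fold change -4.70, adjusted p = 0.0883 in limma), miR-127-5p_+_2 (-3.75, adjusted p = 0.141) and miR-136-3p (-3.68, adjusted p = 0.145). miR-541-5p had a log2 fold change of -2.63 (adjusted p = 0.342 in limma). These values treat an entry that was not listed as 0, which can overstate its decrease, and more so at 2 ppm O3, where the reporting minimum was highest. Between 2 ppm and 1 ppm O3, 0 of the 23 were called in limma, against 154 of the 1308. Of the 23, 0 had an unadjusted p below 0.05, against 334 of the 1308. Most O3 values of the entries other than miR-127-3p were 0, which left little room to find a difference.

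The rest of the region was scarcer still. Of 62 hairpin names listed for Dlk1-Dio3, 23 had an entry, and beyond the hairpins described above these gave 17 entries, of which 0 reached a mean of 50 RPMMM. They were above 0 in an FA pool for 14 entries, in a 1 ppm pool for 6 and in a 2 ppm pool for 0, and 13 were above 0 in 1 pool alone. The 2 ppm pools, however, list nothing below 34.34 RPMMM. At 40 RPMMM or more, only 2 of the 17 entries were listed in an FA pool and 1 in a 1 ppm pool. Over all 1308 entries, 57.1% to 60.9% were above 0 in FA pools, 54.8% to 65.1% at 1 ppm O3 and 35.9% to 38.7% at 2 ppm O3. The highest value of the 17 entries was 70.96 RPMMM, that of miR-134-5p, a regulator of dendritic spine size in neurons, in FA pool 3. miR-299-3p_-_1 was at 51.86, 37.5 and 22.41 RPMMM in FA, at 28.29, 0 and 51.11 RPMMM at 1 ppm O3 and at 0 at 2 ppm O3. Imprinted miRNAs of other regions (miR-335, miR-483, miR-296 and miR-298) summed to 19.4 to 48.55 RPMMM in FA, 0 to 73.21 RPMMM at 1 ppm O3 and 0 to 103 RPMMM at 2 ppm O3, with overlap between all exposures.

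The entries whose pattern over the 9 pools was most like that of miR-127-3p were miR-451 (root mean square difference of centred log2(RPMMM + 1), 0.77), miR-486-5p (0.95), its near-identical partner miR-3107-5p (0.95), miR-378-3p (0.99) and miR-378-3p_+_1 (1.09). The median of all other tested entries was 1.91. miR-451 and miR-486 are miRNAs of red blood cells, and miR-486 is also found in muscle. miR-451 was at 372.1, 438.4 and 984.1 RPMMM in FA, 73.22, 120.7 and 94.08 RPMMM at 1 ppm O3 and 66.46, 217.7 and 479.5 RPMMM at 2 ppm O3. miR-486-5p was at 339.2, 474.6 and 737.6 RPMMM in FA, 76.54, 190.1 and 144 RPMMM at 1 ppm O3 and 91.39, 129.6 and 468.9 RPMMM at 2 ppm O3. miR-378-3p was at 23320, 30210 and 35340 RPMMM in FA, 3603, 5526 and 3973 RPMMM at 1 ppm O3 and 11960, 13250 and 13910 RPMMM at 2 ppm O3. miR-451, miR-486-5p and miR-378-3p had their highest FA value in pool 3 and their highest 2 ppm value in pool 3, as miR-127-3p did. Being chosen for this likeness, they are given without a test.

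**Figure D4:**
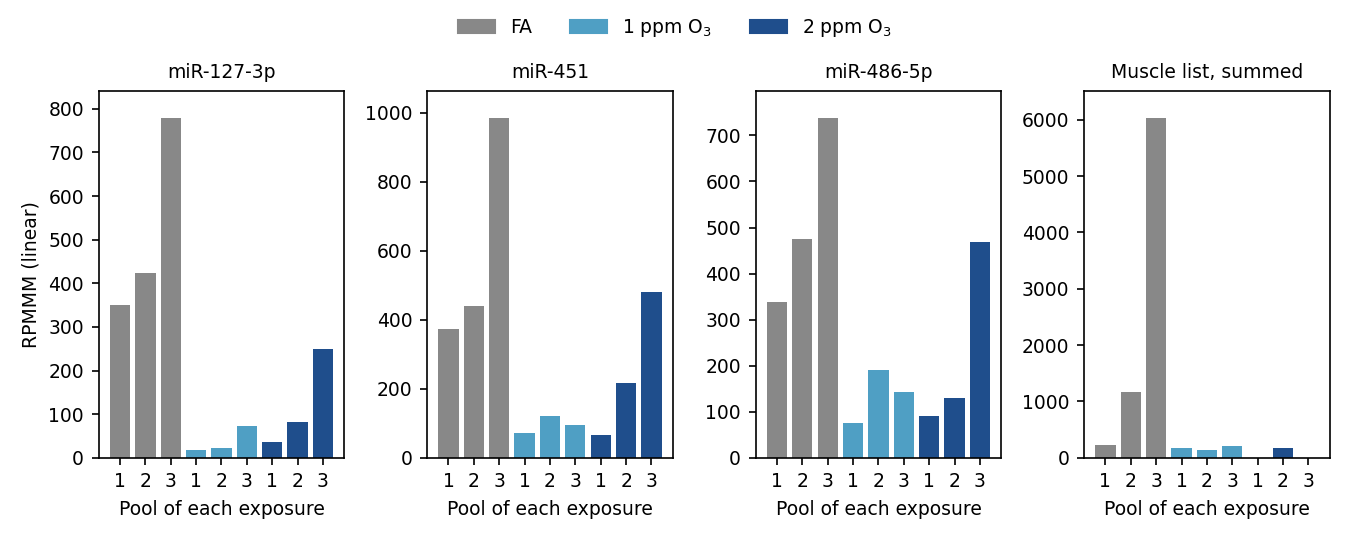
Level of miR-127-3p, of miR-451 and miR-486-5p, whose patterns were most like it, and of the summed muscle list in each pool (RPMMM, linear axes of different range). FA pool 3 has the highest bar in all 4 panels, and 2 ppm pool 3 the highest O3 bar for the 3 miRNAs but 0 in the muscle list.

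The erythroid list (miR-451, miR-486 and miR-144, with all 3 hairpins present in 8 entries) summed to 884.4, 942.8 and 1822 RPMMM in FA, 149.8, 343.2 and 264.8 RPMMM at 1 ppm O3 and 157.8, 347.2 and 948.4 RPMMM at 2 ppm O3. miR-144, which is made from the same transcript as miR-451, was at 44.08, 0 and 35.48 RPMMM in FA and at 0 in the O3 pools. The ratio of miR-127-3p to miR-451 was 0.941, 0.968 and 0.791 in FA, 0.25, 0.194 and 0.765 at 1 ppm O3 and 0.55, 0.381 and 0.519 at 2 ppm O3. All FA ratios lay above all O3 ratios, with 1 ppm pool 3 close to them. The ratio to miR-486-5p was 1.03, 0.894 and 1.06 in FA, 0.239, 0.123 and 0.5 at 1 ppm O3 and 0.4, 0.64 and 0.53 at 2 ppm O3. The group was chosen by the low level of miR-127-3p at 1 ppm O3, and miR-451 and miR-486-5p by their likeness to it. The order of these ratios thus follows in part from the choice, and they are a description only. The part of red blood cell miRNAs in the values of miR-127-3p was not tested.

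A neural list had entries for 4 of 14 hairpin names, among which miR-124 also stands under its other name miR-124a. It had none for miR-9 or miR-124, its defining members. The list summed to 875.9 to 1005 RPMMM in FA, 475.9 to 623.7 RPMMM at 1 ppm O3 and 570.5 to 679.6 RPMMM at 2 ppm O3. The FA pools lay above all O3 pools in this sum. Of its hairpins, miR-128-1 was the largest and did the same (512.8 to 616.2 RPMMM in FA, at most 387.8 RPMMM in O3 pools). FA overlapped with 2 ppm O3 in miR-128-2 and with 1 ppm O3 in miR-338, and miR-219-1 was listed in 1 ppm pool 3 alone. All 1 ppm pools lay below all FA pools for 18.4% of tested entries, and all 2 ppm pools for 48.2%. A mesenchymal list (miR-143, miR-145, miR-199 and miR-214, all 6 hairpins present) ranged from 6199 to 14690 RPMMM in FA, with the highest value in pool 3, from 7226 to 10720 RPMMM at 1 ppm O3 and from 6517 to 6625 RPMMM at 2 ppm O3. Endothelial miR-126 summed to 111.5 to 313.7 RPMMM in FA, 445 to 938.5 RPMMM at 1 ppm O3 and 763.7 to 912.2 RPMMM at 2 ppm O3. The part of these cells in the levels of the Dlk1-Dio3 miRNAs was not tested.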

How the data were processed

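Small RNA from BALF EVs was sequenced in 9 pools. The authors used miRquant for adapter trimming, alignment to mm9 and quantification of mature and shifted miRNAs, and deposited RPMMM values (an RPM unit), which are relative to the mapped miRNA reads of a pool. The submitters' processing notes also name mm9. Raw counts were not used here. Pool depth was estimated from the steps between low values (tolerance 0.02 reads). These gave whole reads for 76.4% to 90.8% of low values per pool, which was too few to run a count test, and for 57 of the 58 member values above 0. Intervals and minimums cover counting error only. Groups came from the exposure label of each sample, and pool numbers only name samples.

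The 461 entries with a mean above 50 RPMMM were tested with limma 3.58.1 in R 4.3.3 on log2(RPMMM + 1), in 1 group-means model over all pools with a variance trend and Benjamini-Hochberg adjustment over all entries. Calls needed both an adjusted p under 0.05 and a difference of 2-fold or more. On this scale the fold change of a low entry can be understated by the pseudocount, or overstated where an entry below the reporting minimum is listed at 0. The shares of an arm were compared by exact permutation tests (scipy 1.17.1). The share of a hairpin on its 3p arm could be compared 0 times, as no hairpin had both arms above 0 in all pools of an exposure pair. The script was tested on simulated data. Alternatives in pseudocount, filter, scaling, treatment of low values, isomiRs, model and left-out pools were run. A filter on the maximum, and counts without FA pool 3 or at 40 RPMMM and above, were added after seeing the data.

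The hairpins, the marker lists and the lists of imprinted miRNAs were chosen with earlier results of these data known. Every unshifted entry of the 10 hairpins was named, with the isomiR of highest mean of an arm, and the 5 tested entries with the smallest root mean square difference from miR-127-3p. Other entries named (miR-134-5p, miR-299-3p_-_1 and miR-144) were chosen after their values were seen. Sequences came from RefSeq and positions from NCBIM37 (mm9) with GENCODE vM1.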

Additional observations from a re-analysis of the deposited data

How the results depend on the processing

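Over 21 alternatives, the log2 fold change of miR-127-3p between 1 ppm O3 and FA, a description only, ran from -4.49 to -3.30 (-3.30 with values below 40 RPMMM set to 40). Between 2 ppm and 1 ppm O3, miR-127-3p was called in 0 of them (log2 fold change 0.79 to 2.25, adjusted p in limma 0.0568 to 0.41). In most alternatives it was the only entry of the 23 that passed the filter and was tested. All 23 were tested without a filter, 12 with the filter on the maximum and 2 with totals without miR-2137 and 4 other hairpins. In these settings, too, 0 were called between 2 ppm and 1 ppm O3. For 2 ppm O3 against FA, miR-127-3p kept its direction in all 21 and its call in 15 (log2 fold change -3.12 to -1.55, adjusted p 0.00475 to 0.148). The count of called entries fell from 1 to 0 under the median of ratios (-1.71, adjusted p 0.0945), under totals without miR-2137 and 4 other hairpins (-1.55, adjusted p 0.148), and without FA pool 2 (-2.50), FA pool 3 (-2.07), 2 ppm pool 1 (-1.75) or 2 ppm pool 2 (-2.33), so it ranged from 0 to 1 over the left-out pools; the cause was not tested. In that comparison all entries called lower and higher numbered 135 and 66, against 34 and 87 under the median of ratios, where the median of all entries moved from -0.83 to -0.09, 97 and 70 without miR-2137, and 26 and 43 without the 5 hairpins. Lower and higher calls for 1 ppm O3 against FA went from 13 and 48 to 8 and 1 without the 5 hairpins, and for 2 ppm against 1 ppm O3 from 103 and 52 to 7 and 75 under the median of ratios, 56 and 54 without miR-2137 and 8 and 42 without the 5 hairpins. All calls for 1 ppm and 2 ppm O3 against FA and for 2 ppm against 1 ppm O3 numbered 61, 201 and 155, against 13, 86 and 60 with each mature miRNA tested once and 9, 69 and 50 without the 5 hairpins; the median of ratios gave 121 and 82 in the latter comparisons. The difference in shifted share of miR-127-3p between 1 ppm O3 and FA was 23.95 percentage points and ran from -0.86 (without 1 ppm pool 1) to 36.35 over the left-out pools. Between 2 ppm O3 and FA it was -0.86 and became 32.11 when values below 40 RPMMM, zeros included, were set to 40, which gives every absent isomiR 40 RPMMM. No paired analysis was possible because the labels give no replicate numbers that the groups share. Depth limited the 23 entries, since at 10 to 11 reads a value is at the reporting minimum. Of their 58 values above 0, 9 had 11 reads or fewer, among them miR-127-3p in 1 ppm pool 1 and 2 ppm pool 1.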
